A study of Homo sapiens with 2 samples.

Results

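The miR-29 family was followed in small RNA libraries of exosomes (vesicles shed by cells) from the human liver cancer lines MHCC97H and HepG2. Members were every listed mature miRNA whose name, without arm and hairpin copy number, is miR-29a, miR-29b or miR-29c. This gave 7 of 793 distinct mature miRNAs, and a name listed more than once was taken once, at its highest count. MHCC97H is a highly metastatic line of hepatocellular carcinoma. HepG2 carries the same tumor label and is often classed elsewhere as hepatoblastoma. Both lines carried no other labelled treatment and grew in DMEM with 10% serum freed of exosomes. Each line gave 1 library, so there was no replicate, no test between lines was possible, and effects of the line and of its library cannot be told apart.

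miR-29 miRNAs are known to repress mRNAs of collagens and other matrix proteins, of the DNA methyltransferases DNMT3A and DNMT3B, and of the survival protein MCL1. In liver they are known for restraining fibrosis in stellate cells, and they are reported as reduced in hepatocellular carcinoma. A miRNA hairpin is cut into a 5p and a 3p strand. For miR-29 the 3p strand is the usual guide, which stays in the silencing complex, and its seed (bases 2 to 8) pairs with target mRNAs.

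The 3p arms are shown first because they share 1 seed, in capitals, and differ only behind it. Sequences are from RefSeq (GRCh38.p14), 5′ to 3′, and all 7 members were matched by name.
miR-29a-3p: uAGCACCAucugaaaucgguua
miR-29b-3p: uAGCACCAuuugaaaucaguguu
miR-29c-3p: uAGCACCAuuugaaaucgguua
Counted from 1 at the 5′ end, miR-29a-3p and miR-29c-3p differed at 1 base, C10U (miR-29a-3p first). miR-29a-3p and miR-29b-3p differed at 4 bases of their shared length, namely C10U, G18A, U21G and A22U. miR-29b-3p and miR-29c-3p were identical over their first 17 bases. Since inserts of 15 to 35 nt were kept, a read of 17 bases or fewer from the start of either could not be assigned to one of them. The mismatch setting of the mapping is not given in the sources used here, and the part of misassigned reads in the counts was not tested. miR-29b-3p ends in AGUGUU, a motif that directs this miRNA to the nucleus in human cells. Read 5′ to 3′ on the RNA strand, AGUGUU occurred anywhere in 0.852% of the 704 listed names with a RefSeq sequence, and miR-29b-3p was the 1 name that ended in it.

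The 5p arms, by contrast, each had a seed of their own, held by no other listed miRNA with a sequence.
miR-29a-5p: aCUGAUUUcuuuugguguucag
miR-29b-1-5p: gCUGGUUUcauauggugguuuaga
miR-29b-2-5p: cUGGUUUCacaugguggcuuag
miR-29c-5p: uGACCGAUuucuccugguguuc

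The 4 hairpins form a pair on each of 2 chromosomes. MIR29A (chr7:130876747-130876810) and MIR29B1 (chr7:130877459-130877539) lie on the minus strand, 648 bases apart. In GENCODE release 29 MIR29B1 lies in an exon of the long noncoding RNA LINC-PINT, whose annotated 3′ end overlaps the first bases of MIR29A. Both hairpins also lie in an intron of the long noncoding RNA gene AC016831.6. MIR29C (chr1:207801852-207801939) and MIR29B2 (chr1:207802443-207802523), also on the minus strand, are 503 bases apart in an exon of the long noncoding RNA MIR29B2CHG. The mature miR-29b-3p is the same from MIR29B1 and MIR29B2, so its reads cannot be placed at either, whereas the 5p arms of the pair can be told apart. The hairpins of miR-29a and miR-29c are printed because their arm use is compared further on. Capitals mark the 5p arm and then the 3p arm.
MIR29A: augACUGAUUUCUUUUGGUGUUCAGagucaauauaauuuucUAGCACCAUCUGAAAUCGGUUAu
MIR29C: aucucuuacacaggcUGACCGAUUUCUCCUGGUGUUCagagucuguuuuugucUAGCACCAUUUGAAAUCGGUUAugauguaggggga

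There were 304457 miRNA reads from MHCC97H and 22831 from HepG2, 13.3 times fewer. Levels are given as CPM, counts scaled to a common total of miRNA reads. A single read was worth 3.28 CPM in MHCC97H and 43.8 CPM in HepG2. For a count of 0 in HepG2 a fixed limit of 3 reads, or 131 CPM, was used, while the exact interval ends at 162 CPM. All intervals are exact 95% intervals and, like the fixed limit, cover counting error only. The 10 listed arms of liver miRNAs summed to 32031 CPM in MHCC97H, where 1 had no read, and 158600 CPM in HepG2, where 4 had none. Most of this was miR-148a-3p, at 26976 and 142438 CPM. By the calling rule given below, 4 of the 7 liver arms tested were called for HepG2 and 1 for MHCC97H. Over all names the rule called 9.02% and 20.4%. The hepatocyte miRNA miR-122-5p was not called, at 979 CPM in MHCC97H and 1051 CPM in HepG2. Both libraries also held miRNAs that mark other cell types. Listed in the order MHCC97H and HepG2, all 5 red cell arms summed to 12327 and 25317 CPM, with no HepG2 read for 1 of them. Within this list miR-451a, at 2716 and 20104 CPM, and miR-486-5p, at 8313 and 4205 CPM, went opposite ways. The 5 leukocyte arms summed to 2276 and 5212 CPM, and the 2 endothelial arms to 6507 and 7227 CPM. The 10 mesenchymal and stellate cell arms summed to 24128 and 29959 CPM, with no HepG2 read for 1. They were 21652 and 26499 CPM with the equal counts of miR-199a-3p and miR-199b-3p taken once. The rule called 1 of 5 red cell, 1 of 5 leukocyte and 1 of 2 endothelial arms tested for HepG2. It also called 2 of 9 mesenchymal and stellate cell arms for HepG2, and no arm of these lists for MHCC97H. The part of these cell types in the miR-29 values was not tested.

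miR-29a-3p was the leading member in both libraries, followed by miR-29b-3p, and with library totals neither differed between the cell lines beyond counting error. miR-29a-3p had 930 reads in MHCC97H, or 3055 CPM (2861 to 3257), and 63 reads in HepG2, or 2759 CPM (2120 to 3530). The intervals overlap, and the ratio of MHCC97H to HepG2 was 1.11 (0.857 to 1.45). It ranked 60th of the 793 names in MHCC97H and 42nd in HepG2. miR-29b-3p had 357 reads in MHCC97H, or 1173 CPM (1054 to 1301), and 19 reads in HepG2, or 832 CPM (501.0 to 1300). Its ratio was 1.41 (0.889 to 2.37), so a difference of up to 2.37-fold remains within counting error. miR-29b-3p was listed in 2 entries with equal counts, which were taken once.

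miR-29c-3p was the least abundant 3p arm in both libraries. It had 6 reads in MHCC97H, or 19.7 CPM (7.23 to 42.9), and 3 reads in HepG2, or 131 CPM (27.1 to 384). It was thus 6.67-fold higher in HepG2 (1.08 to 31.2). The level intervals overlap, while that of the ratio lies just above 1. With 1 HepG2 read fewer, an alternative added after the data were seen, the ratio was 4.45 with an interval of 0.439 to 24.9.

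**Figure D1:**
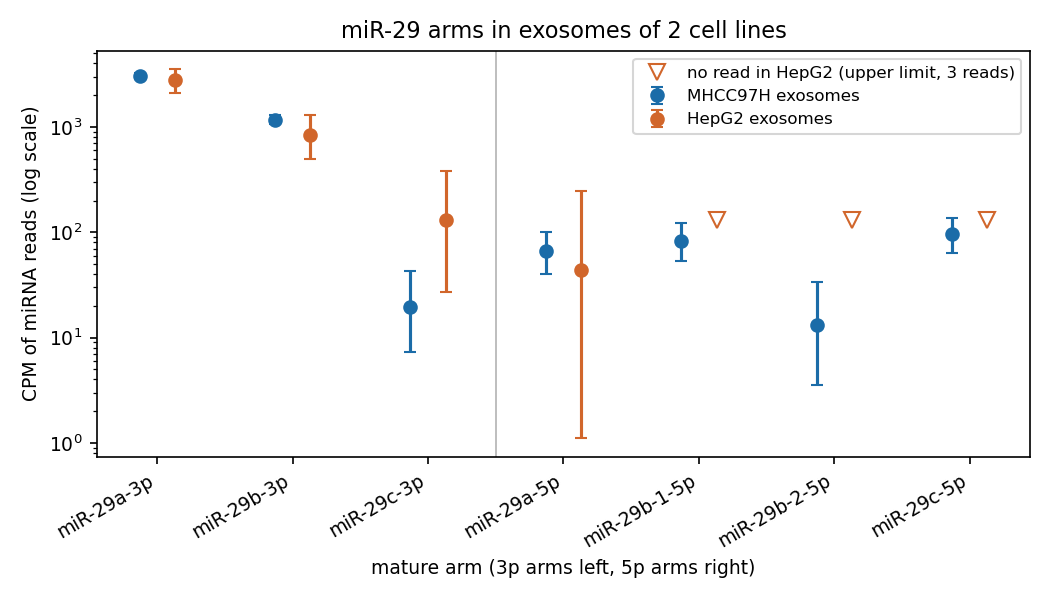
Levels of the 7 miR-29 arms in CPM (log axis) in exosomes of MHCC97H and HepG2, 1 library each, with exact 95% counting intervals as bars. Open triangles stand at 131 CPM, a fixed limit of 3 reads used for a HepG2 count of 0. The exact interval for such a count ends at 162 CPM. miR-29a-3p and miR-29b-3p lie at like levels in both libraries, and miR-29c-3p is low in both.

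The 5p arms were all detected in MHCC97H, at low levels, and nearly absent from the shallower HepG2 library. miR-29c-5p had 29 reads in MHCC97H, or 95.3 CPM (63.8 to 137). miR-29b-1-5p had 25 reads, or 82.1 CPM (53.1 to 121), and miR-29a-5p had 20 reads, or 65.7 CPM (40.1 to 101). These 3 overlap in their intervals and cannot be put in order. miR-29b-2-5p, from the other miR-29b hairpin, was lower, with 4 reads, or 13.1 CPM (3.58 to 33.6). Between the copies of miR-29b, the 5p arm from chromosome 7 thus outnumbered that from chromosome 1, by 25 reads to 4 in MHCC97H. In HepG2 a single read of miR-29a-5p (43.8 CPM, 1.11 to 244) was the only 5p read. At their MHCC97H levels, miR-29c-5p would have given 2.17 HepG2 reads, miR-29b-1-5p 1.87 and miR-29b-2-5p 0.300. A lower level of these single arms in HepG2 was therefore not detectable at this depth. The highest HepG2 level that the reads allow was 1.81 times that of MHCC97H for miR-29c-5p, 2.12 times for miR-29b-1-5p and 20.2 times for miR-29b-2-5p. Summed, a grouping chosen after the values were seen, the 5p arms had 78 reads in MHCC97H and 1 in HepG2. This is a ratio of 5.85 whose interval, 1.02 to 234, rests on that 1 read. With TMM scaling, a trimmed mean of the ratios, the interval was 0.984 to 226, and with zero counts set to 3 reads the log2 ratio turned from 2.55 to -0.77.

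Differences were called by a rule of size, since replicates were lacking. A miRNA was called when its log2 ratio, with 1 CPM added to each level, was at least 2-fold in size and the interval of its ratio excluded 1. All 7 members had 10 CPM or more in at least 1 library and entered the comparison, as did 543 names in all. By this rule 1 of 7 members, miR-29c-3p, was called, as higher in HepG2, and none was called as higher in MHCC97H. Over all names the rule called 29.5%, of which 20.4% were for MHCC97H and 9.02% for HepG2. A single call among 7 members cannot be set apart from these shares. By size alone, 4 of 7 members passed. The 3 on the MHCC97H side were miR-29b-1-5p, miR-29b-2-5p and miR-29c-5p, none of which had a HepG2 read. By size alone 77.0% of all names passed, 51.7% for MHCC97H and 25.2% for HepG2. These shares also hold names with few reads. Of the 281 names for MHCC97H, 181 had no HepG2 read, and 1 HepG2 read, at 43.8 CPM, was enough to enter. The median log2 ratio was 0.57 over the members and 1.12 over the 543 names.

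**Figure D2:**
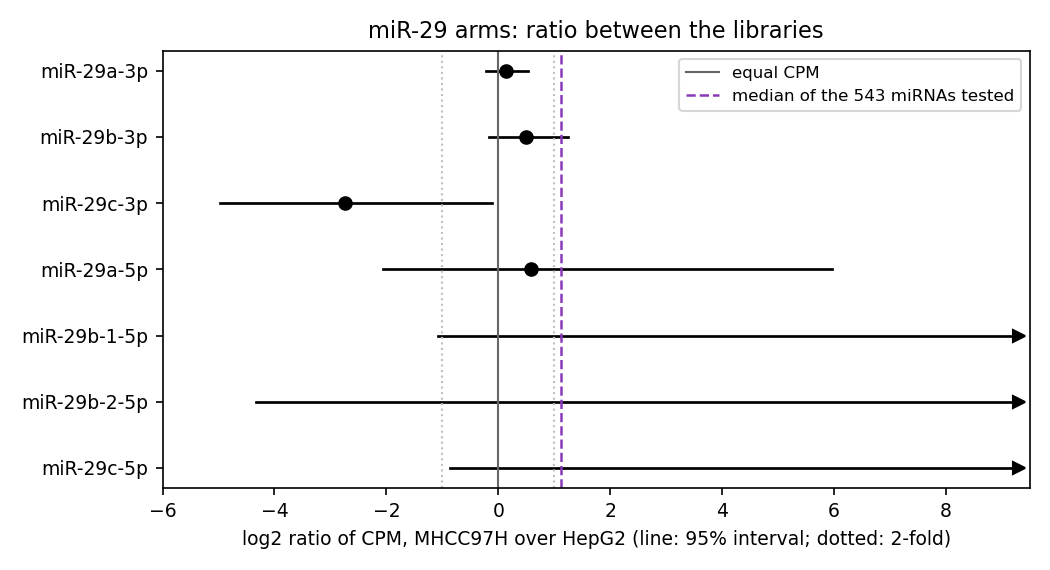
Ratio of CPM in MHCC97H over HepG2 for each arm on a log2 axis, with exact 95% intervals as lines, and arrows where no HepG2 read leaves the upper end open. The solid vertical line marks equal CPM, dotted lines 2-fold, and the dashed line the median of 1.12 over the 543 names. The interval of miR-29c-3p alone lies wholly to the left of equal CPM, and that of miR-29a-3p ends to the left of the dashed line.

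The scale set the reading of the abundant arms. With library totals, miR-29a-3p (log2 ratio 0.15) and miR-29b-3p (0.49) leaned slightly to MHCC97H. With log2 ratios centred on the median of all names, a shift of 1.12, they were -0.97 and -0.62, on the HepG2 side. That median includes 181 names with no HepG2 read and 2-fold or more for MHCC97H, whose ratios depend on the 1 CPM added. A reduced total, without the 10 top miRNAs of either library, gave -0.52 and -0.17. TMM gave 0.095 and 0.44, on the MHCC97H side. Their direction thus turned with median centring and with the reduced total, and held with TMM. As a ratio of HepG2 to MHCC97H, miR-29a-3p was then 1.96 (1.49 to 2.53) with median centring and 1.43 (1.09 to 1.85) with the reduced total. Both ratios were beyond counting error and under 2-fold, though the interval with median centring includes 2-fold. miR-29b-3p was 1.54 (0.916 to 2.44) and 1.13 (0.670 to 1.78). These intervals take each shift as exact, so error in the shift itself is not in them. miR-29c-3p was called for HepG2 under each of these scalings and with TMM. Of all names, the share called for HepG2 was 9.39% with TMM, 13.4% with the reduced total and 17.9% with median centring, and the share called for MHCC97H was 19.3%, 13.3% and 9.94%. The split of all calls moved as well, from 69.4% for MHCC97H with library totals to 35.8% with median centring and 49.7% with the reduced total.

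**Figure D3:**
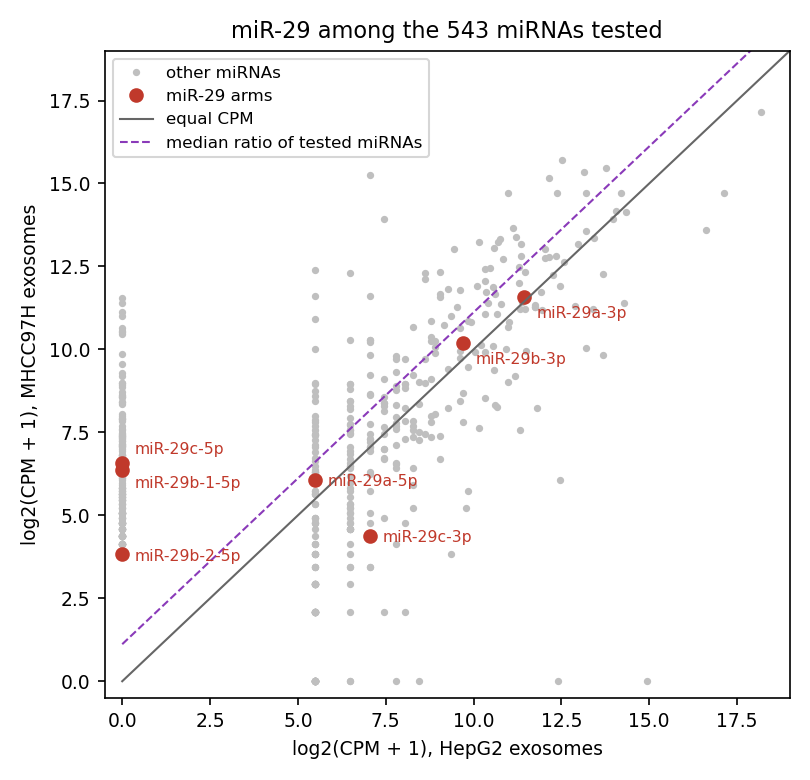
Level in MHCC97H against level in HepG2, as log2(CPM + 1), for the 543 names tested (grey) and the 7 miR-29 arms (red). miR-29a-3p and miR-29b-3p lie close to the solid line of equal CPM and below the dashed line of the median ratio, and the 3 arms with no HepG2 read lie on the left edge.

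The 3p arms carry the same seed, so their reads were summed as the seed total of each library. The sum was 1293 reads in MHCC97H, or 4247 CPM (4019 to 4485), and 85 reads in HepG2, or 3723 CPM (2974 to 4604). The ratio was 1.14 (0.915 to 1.44), or 0.19 on the log2 scale. With median centring it was -0.93, which as a ratio of HepG2 to MHCC97H is 1.90 (1.51 to 2.37). No other listed name with a sequence shared the seed. Among 579 groups of miRNAs with a common seed, the miR-29 group ranked 35th in MHCC97H and 26th in HepG2. Names without a sequence were left out of this ranking, which covered 90.4% of MHCC97H reads and 93.5% of HepG2 reads.

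The make-up of the family does not depend on scaling between libraries. miR-29a-3p took 71.9% of the 3p reads in MHCC97H (69.4 to 74.4%) and 74.1% in HepG2 (63.5 to 83.0%). miR-29b-3p took 27.6% (25.2 to 30.1%) and 22.4% (14.0 to 32.7%). The intervals of each overlap widely. miR-29b-3p over miR-29a-3p differed between the libraries by a factor of 1.27 (0.739 to 2.29), taken as an odds ratio. If the 2 equal entries of miR-29b-3p were reads split evenly between hairpin copies, the sum would apply, and miR-29b-3p would take 43.3% of 3p reads in MHCC97H and 36.5% in HepG2. miR-29c-3p took 0.464% in MHCC97H (0.170 to 1.01%) and 3.53% in HepG2 (0.734 to 9.97%). Per read of miR-29c-3p there were 155 reads of miR-29a-3p in MHCC97H and 21 in HepG2, a factor of 7.38 (1.16 to 35.4). This scale-free comparison again rests on 3 HepG2 reads of a sequence that is 1 base from the dominant member.

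Most family reads came from the 3p arm in both libraries. It made up 94.3% in MHCC97H (92.95 to 95.5%) and 98.8% in HepG2 (93.7 to 99.97%), and the odds ratio of 5p over 3p reads between the libraries was 5.13 (0.869 to 207). The last interval includes 1. The background was 91 names with 10 or more reads in each library, with the minor arm set by its mean share over both. Its share was higher in MHCC97H for 70 of them, with medians of 5.58% in MHCC97H and 0.769% in HepG2. A lower counted share of the minor arm in HepG2 was thus common and not particular to miR-29. With as few as 10 HepG2 reads per name, a minor arm of a few percent can have no read by counting alone. The part of depth in these shares was not tested.

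Within MHCC97H the members differed in arm use. The 3p arm made up 97.9% of miR-29a reads (96.8 to 98.7%) and 92.5% of miR-29b reads (89.4 to 94.9%). The miR-29b share takes the 2 equal entries of its 3p arm once, against the 5p reads of both hairpins. It would be higher with the entries summed, and its difference from miR-29a was not tested that way. For miR-29c the order was turned: 6 reads came from the 3p arm and 29 from the 5p arm, a 3p share of 17.1% (6.56 to 33.6%). This interval does not overlap those of the other members. In HepG2 all 3 reads of miR-29c were from the 3p arm, which leaves a 3p share of 29.2 to 100%, an interval that overlaps the one in MHCC97H. Compared directly, the odds ratio of 5p over 3p reads of miR-29c, MHCC97H over HepG2, had a lower end of 1.53 and no upper end, since HepG2 had no 5p read. It rests on those 3 HepG2 reads. The larger arm also differed between the libraries for 14 of 134 names with 3 or more reads in each, miR-29c among them. In MHCC97H the 3p arm was the larger in 83 of 174 names with 10 or more reads. The 5p arms of miR-29a and miR-29c were at 65.7 and 95.3 CPM there, with overlapping intervals, so the difference in arm use lay in the 3p reads. The 3p arms of these members are 1 base apart. Whether reads of miR-29c-3p were counted as miR-29a-3p was not tested.

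**Figure D4:**
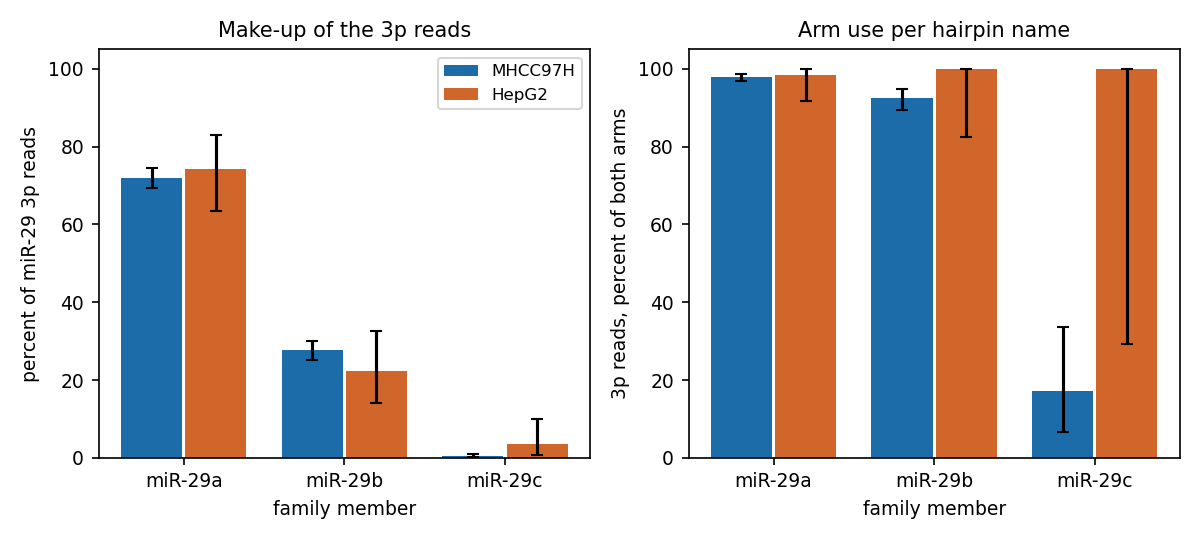
Left, the share of each member in the miR-29 3p reads of a library. Right, the 3p share of the reads of each member, with both arms counted. Bars start at 0 and carry exact 95% binomial intervals. miR-29a leads the 3p reads in both libraries, and miR-29c in MHCC97H is the 1 bar on the right below 50%.

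By chromosome, leaving aside miR-29b-3p, the arms of the chromosome 7 pair had 975 reads in MHCC97H and 64 in HepG2, or 3202 and 2803 CPM. The ratio was 1.14 (0.887 to 1.495). The arms of the chromosome 1 pair had 39 and 3 reads, or 128 and 131 CPM, with a ratio of 0.975 (0.310 to 4.93). The chromosome 7 sum was thus far larger in both libraries, and with library totals neither pair differed between libraries beyond counting error. This sum was almost all miR-29a-3p, with 930 of its 975 reads in MHCC97H and 63 of its 64 in HepG2. The 5p arms in MHCC97H were closer, with 20 and 25 reads for miR-29a-5p and miR-29b-1-5p of chromosome 7. Those of chromosome 1, miR-29c-5p and miR-29b-2-5p, had 29 and 4. With median centring the chromosome 7 pair was 1.90-fold higher in HepG2 (1.45 to 2.45). The chromosome 1 sum joins unlike arms, since all 3 of its HepG2 reads were miR-29c-3p and 33 of its 39 MHCC97H reads were 5p.

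The miRNAs nearest to the leading members in level over both libraries were sought among 117 names with 10 or more reads in each, by distance of log2(CPM + 1). With only 2 libraries this describes levels and no shared pattern of change. Nearest to miR-29a-3p were miR-30c-5p (distance 0.070), with 2910 CPM in MHCC97H and 2759 CPM in HepG2, and miR-26b-5p (0.16), with 2752 and 2672 CPM. miR-379-5p (0.36) and miR-378c (0.39) followed. Nearest to miR-29b-3p were miR-378d (0.27), with 982 and 788 CPM, and miR-122-5p (0.43), then miR-374a-3p (0.46) and miR-144-5p (0.47).

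miRNAs with roles like those of miR-29 were counted beside it by the same rule. The lists name miRNAs and take in both arms of each, so they also hold partner arms for which the role is not reported. Over all 543 names the rule called 20.4% for MHCC97H and 9.02% for HepG2 with library totals, around a median log2 ratio of 1.12. With median centring it called 9.94% and 17.9%. For miRNAs reported to repress DNMT or EZH2 mRNAs, 3 of 17 tested arms were called for MHCC97H and 1 for HepG2, with a median log2 ratio of 0.83. Of these calls, 1 in each direction was the more abundant arm of its name. Their most abundant members were miR-148a-3p, a repressor of DNMT1 at 26976 CPM in MHCC97H and 142438 CPM in HepG2, and miR-143-3p, at 18167 and 20849 CPM. With median centring this list had 1 call for MHCC97H and 6 for HepG2, and a median of -0.28. For miRNAs reported to restrain fibrosis, 7 of 18 tested arms were called for MHCC97H and 1 for HepG2, with a median of 3.03. The more abundant arm of its name made 3 of the 7 calls. All 7 were arms of the miR-30 family, led by miR-30a-5p at 26917 and 2015 CPM and its partner miR-30a-3p at 15667 and 175 CPM. No arm of the other miRNAs in this list was called for MHCC97H. The call for HepG2 was miR-146a-5p, at 65.7 and 5606 CPM. With median centring the calls were 4 and 4. For miRNAs reported to promote fibrosis, 4 of 13 tested arms were called for MHCC97H and 2 for HepG2, with a median of -0.48, and 3 and 5 with median centring. Of the calls with library totals, 2 for MHCC97H and 1 for HepG2 were the more abundant arm. The most abundant were miR-21-5p at 144411 and 300031 CPM and miR-21-3p at 8530 and 1533 CPM. In this list miR-199a-3p and miR-199b-3p had equal counts in both libraries, so their reads cannot be told apart. For miRNAs reported to repress MCL1, as miR-29b does, 7 of 9 tested arms were called for MHCC97H and none for HepG2, with a median of 3.27. The more abundant arm of its name made 3 of these 7 calls. Median centring left 4 for MHCC97H and gave 1 for HepG2. Their most abundant members were miR-101-3p at 10419 and 10950 CPM and miR-125b-5p at 1711 and 569 CPM. miR-101 is also in the list of DNMT and EZH2 repressors, and miR-148a and miR-143 of that list are liver and mesenchymal markers as well. The miR-29 family had 1 call of 7, for HepG2, under both scalings, with medians of 0.57 and -0.54.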

How the data were processed

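Per the file headers, the deposited values are unnormalized read counts for mature miRNAs, with a column for each library. Trimming and mapping tools in the submitters' processing notes are cutadapt and Bowtie. Their versions and mismatch setting, the miRNA annotation and the genome build were not given in the sources used here. Per the labels' protocols, libraries were made from TRIzol RNA with an NEBNext small RNA kit, with inserts of 15 to 35 nt. No molecular identifiers are described, so PCR copies of 1 molecule can count as several reads.

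Of 915 entries, 793 names were distinct, and a repeated name was used once, at its highest count. CPM used each library's total over these names. Ratios between libraries carry exact 95% Clopper-Pearson intervals on the split of reads, levels exact Poisson intervals, and shares exact binomial intervals. Odds ratios carry exact 95% intervals that are conditional on the row and column totals of their reads. The calling rule needed 10 CPM in at least 1 library, a 2-fold size with 1 CPM added, and an interval that excluded 1. The procedure was run on simulated data with counting error alone, which hold no variation between libraries and no misassigned reads. Named miRNAs were all members, the 4 nearest in level to miR-29a-3p and to miR-29b-3p, the 2 most abundant of each role list, and miR-122-5p. miR-451a, miR-486-5p, miR-199a-3p, miR-199b-3p and miR-146a-5p were named after their values were seen. Members and lists were chosen with earlier results of these data known. Alternatives changed scaling (including the trimmed mean of M-values, TMM, in edgeR), repeats, pseudocount, filter and fold. Sequences are from RefSeq (GRCh38.p14), host transcripts from GENCODE release 29 (GRCh38), and neither entered the counts. Software was edgeR 4.0.16 in R 4.3.3, and scipy 1.17.1, pandas 2.3.3, numpy 2.4.6 and matplotlib 3.10.9 in Python 3.11.15.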

Additional observations from a re-analysis of the deposited data

How the results depend on the processing

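The number of called members was 1, miR-29c-3p for HepG2, under TMM scaling, median centring, a reduced total that lacks the 10 top miRNAs of either library, summed repeats, library totals, a 1.5-fold size, no filter and a 100 CPM filter. It was 4 with the size criterion alone and 0 with 1 HepG2 read of miR-29c-3p left out. The log2 ratio of the summed 3p arms was 0.19 as reported, -0.93 after median centring and -0.48 for the reduced total, against 0.14 with TMM and 0.080 with summed repeats. Summing the repeats counts miR-29b-3p from both entries. It set the 3p share of family reads in MHCC97H at 95.5%, the miR-29a-3p share of 3p reads at 56.4% in MHCC97H and 60.6% in HepG2, and that of miR-29b-3p at 43.3% and 36.5%. The log2 ratio of the summed 5p arms, 2.55 with library totals, was -0.77 with zero counts set to 3 reads, where the value is fixed by the depth of HepG2. No paired analysis was possible because each cell line had 1 library, and for the same reason no replicate could be left out. The depth of HepG2, with 86 miR-29 reads in all, limits every statement on the 5p arms and on miR-29c.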
